A study of Solanum lycopersicum and Solanum pennellii and Solanum pimpinellifolium with 52 samples.

Results

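The 100 gene models described here were the most inflorescence-specific of the 28298 gene models in the RPKM table of a tomato RNA-seq study. RPKM is a read number scaled by gene model length and by the total of the library. Each gene model had a score, log2 of its mean RPKM over 4 inflorescence libraries plus 1, divided by the largest of the means of the 5 other tissues plus 1. The 100 highest scores were taken. Since these inflorescence values chose the members, their height in inflorescence is a description and not a finding.

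RNA was sequenced from 52 libraries in 2 experiments. The factorial experiment held 24 libraries, 1 for each combination of 2 species, 6 tissues and 2 light treatments, with RNA extracted by Trizol. The species were Solanum pennellii LA716, a wild relative, and S. lycopersicum LA3475, the cultivated tomato whose columns carry the name M82. The tissues were inflorescence, leaf, root, seedling, stem and vegetative meristem. The light treatments were artificial shade and artificial sun, both at about 95 µE. The labels give 0.48 and 3.1 parts of red light per part of far-red without tying either to a treatment, and the lower one was taken to be shade. The other experiment took seedlings from plates under standard light, in 28 libraries, 7 each of S. pimpinellifolium LA1589, S. habrochaites LA1777, S. pennellii LA716 and S. lycopersicum LA3475, extracted with a Qiagen kit. All plants were kept at 22C. Whether each library came from its own plants is not stated in the labels, so a p-value here covers the spread among libraries alone, and that spread may be technical. Plant ages and inflorescence stages are not given in the labels.

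An inflorescence is the flower-bearing part of a shoot, formed by a shoot meristem that has turned to making flowers. In tomato the shoot tip ends in an inflorescence and a side meristem carries growth on, so the tissue holds meristems, young flower buds and the organs forming in them. Genes with reads in flowers and nowhere else are widely known from anthers and pollen, which appear late in bud growth, while genes of young meristems are often shared with the vegetative shoot tip. The table gives IDs and no gene names, and in RefSeq's genes of assembly SLM_r2.1 a match was found for 0 of the 28298 IDs. No role is therefore given to any ID, and the labelled tissues were not checked against named markers.

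The recovered library totals ran from 1477052 to 5556059 reads, and an RPKM of 1 stood for 2.12 reads at the median gene model length of 918 bases and the median total. The members had 15 to 49710 reads over the 4 inflorescence libraries, with a median of 210.5. Of the 100 members, 78 had at least 100 reads there and 4 had under 20. Their gene models were 183 to 3813 bases long, with a median of 761.

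The highest score, 7.81, was that of Solyc07g006380.2.1, a gene model of 318 bases. It had 237 and 360 RPKM in S. pennellii inflorescence in shade and sun, against 5313 and 1749 RPKM in S. lycopersicum inflorescence in shade and sun. Its mean in the next tissue, the vegetative meristem, was 7.52 RPKM. The second score, 7.13, was that of Solyc11g018570.1.1. It had 0 and 2.29 RPKM in S. pennellii in shade and sun, against 11.4 and 680 RPKM in S. lycopersicum in shade and sun, and a next tissue mean of 0.25 RPKM. A single library therefore carried nearly all of the second member's mean. At the edge of the list, Solyc08g029090.2.1 and Solyc07g061750.2.1 scored 2.011 and 1.9985, and the first gene models left out, Solyc08g077860.2.1 and Solyc03g053130.2.1, scored 1.9979 and 1.9972.

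The members spanned a wide range of levels. Their mean RPKM in inflorescence ran from 3.22 to 5363 with a median of 22.5, and 13 members had at least 100 while 22 had under 10. The median score was 2.67, with 36 members at 3 or more. The tissue with the next highest mean was the vegetative meristem for 35 members, root for 21, leaf for 17, seedling for 14 and stem for 13. In 40 members that next mean was under 1 RPKM, and 5 members had no read in the 20 factorial libraries of the other tissues. At the other end, Solyc01g006400.2.1, chosen for mention after its values were seen, was also read outside inflorescence. In the seedling experiment it averaged 108 RPKM in S. pimpinellifolium, 370 RPKM in S. habrochaites and 263 RPKM in S. pennellii. It had 6024 and 5630 RPKM in S. pennellii inflorescence in shade and sun, against 7744 and 2055 RPKM in S. lycopersicum inflorescence in shade and sun. This gene model alone made up 50.6% and 53.4% of the members' summed RPKM in S. pennellii in shade and sun, against 35.8% and 14.3% in S. lycopersicum in shade and sun.

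**Figure D1:**
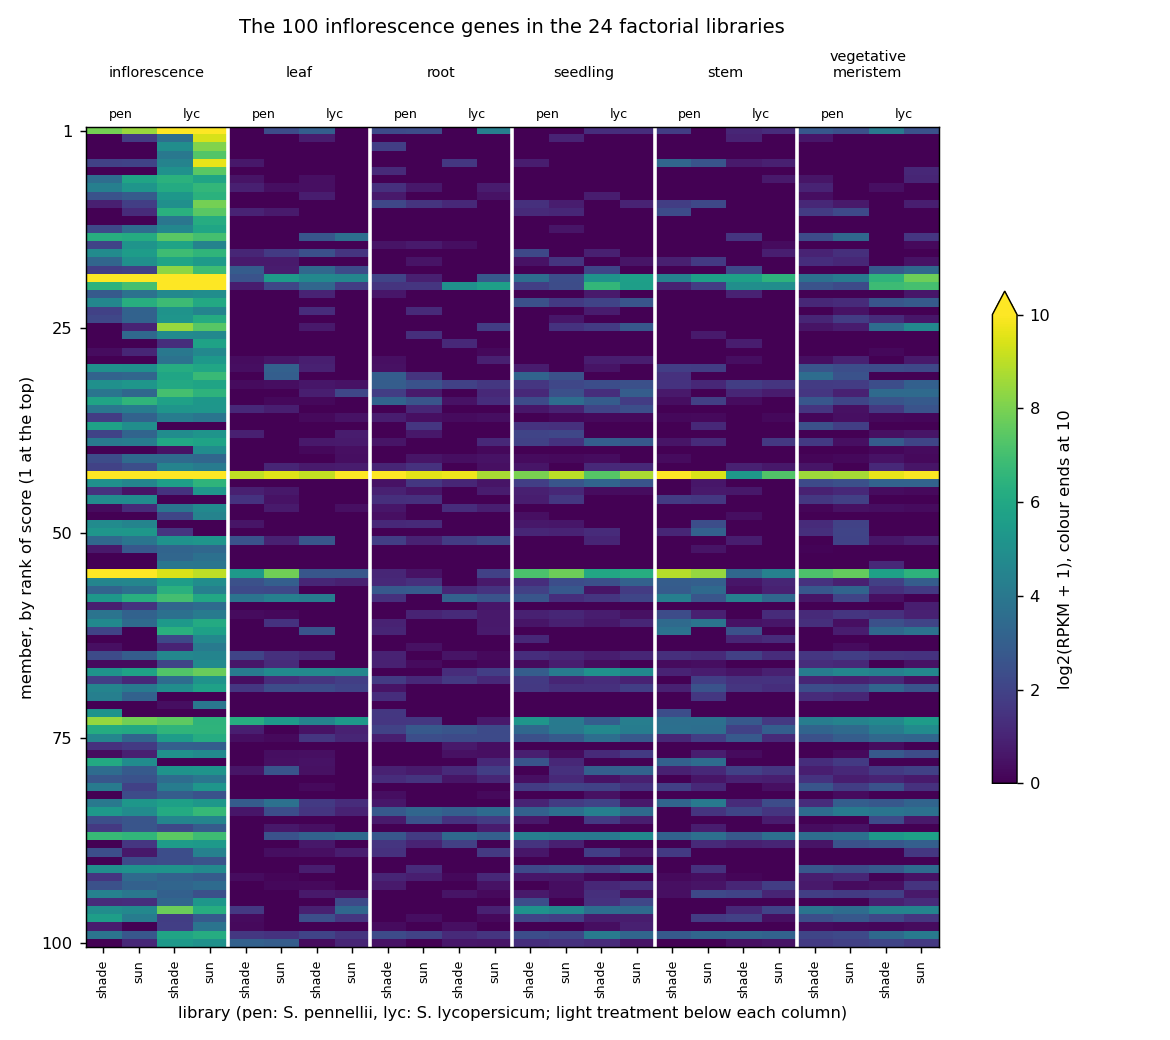
Level of each of the 100 members (rows, by rank of score) in each of the 24 factorial libraries (columns, grouped by tissue, S. pennellii before S. lycopersicum, shade before sun), as log2(RPKM + 1) with the colour ending at 10. The inflorescence columns are bright because they chose the rows, and the S. pennellii columns there hold 20 and 16 members without a read in shade and sun, against 6 and 7 in S. lycopersicum.

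The list leaned towards S. lycopersicum. Of the 100 members, 52 had a mean of at least 5 RPKM in the inflorescence of both species, 8 in S. pennellii alone, 38 in S. lycopersicum alone and 2 in neither. The median member had 4.69 and 7.89 RPKM in S. pennellii in shade and sun, against 28.2 and 37.4 RPKM in S. lycopersicum in shade and sun. The S. pennellii mean was above that of S. lycopersicum in 14 members, and the S. lycopersicum mean was above that of S. pennellii in the other 86. Among all 14610 gene models with an inflorescence mean of at least 5 RPKM, the S. lycopersicum mean was the higher in 65.5%. Within their own tissue, it was the higher in 81 of the 100 most stem-specific gene models, 32 for root and 26 for leaf. The score averages RPKM over both species, so a gene with a very high value in 1 library can enter on that library. Scored on the S. pennellii libraries alone, 48 of the 100 would have been chosen, and on the S. lycopersicum libraries alone, 77. Just 29 would have been chosen by each species alone.

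The comparison of species asked how the inflorescence of S. pennellii differed from that of S. lycopersicum. In a limma fit over 24 libraries, 57 of the 97 members tested were called, meaning an adjusted p under 0.05 and a log2 difference of at least 1 either way, where 8.65% of all 22512 genes tested were called. Of these, 7 were higher in S. pennellii, where 2.54% of all genes were called higher, and 50 were lower, where 6.12% of all genes were called lower. The median log2 difference was -1.81 over the members tested and -0.24 over all genes. Of the members called lower, 16 were lower by at least 4 log2 units. Without the S. lycopersicum sun library, 7 members were called higher and 32 lower, and 3.05% of all genes were called. Over the 4 fits that each left out 1 inflorescence library, the share of all genes called ran between 3.05% and 9.46%. These counts describe the list, since the same 4 libraries chose it. The 3 members not tested had at least 1 RPKM in only 1 library.

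The calls rested on a spread shared with other tissues. With 1 library per species, tissue and light, the fit takes its error from all 24 libraries, and many members are close to 0 outside inflorescence. The members' median absolute difference between shade and sun within a species was 0.60 log2 units in S. pennellii inflorescence and 0.59 in S. lycopersicum inflorescence, and it was between 0.09 and 0.40 in the other tissues of either species. Over all genes tested, the medians in inflorescence were 0.28 in S. pennellii and 0.37 in S. lycopersicum. The standard errors below therefore draw partly on tissues in which the members differed less between lights. With the 4 inflorescence libraries alone, which leaves 2 residual degrees of freedom, limma called 0 members and 0 of all 22512 genes, with the same differences. With a pseudocount of 0.1 in place of 1 the count of called members was 33, where 6.82% of all genes were called. Of the 33, 6 were higher in S. pennellii and 27 were lower.

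Solyc10g005430.2.1 had the largest difference towards S. pennellii. It had 66.3 and 27.95 RPKM in S. pennellii inflorescence in shade and sun, against 0 and 0 in S. lycopersicum. It was at least 64.2-fold higher in S. pennellii, taking 3 reads over both S. lycopersicum libraries as the floor, with a log2 difference of 5.46 ± 0.50 (SE, limma adjusted p = 7.8e-06). Next came Solyc02g077580.1.1, with 52.02 and 29.4 RPKM in S. pennellii, against 0 and 0 in S. lycopersicum. It was at least 38.9-fold higher in S. pennellii (log2 difference 5.33 ± 0.47, SE, limma adjusted p = 5.2e-06). In both genes every S. pennellii library was above every S. lycopersicum library. With the inflorescence libraries alone, the limma adjusted p was 0.082 for Solyc10g005430.2.1 and 0.074 for Solyc02g077580.1.1. The inflorescence libraries compared here also put both genes on the list. A gene without reads in S. lycopersicum inflorescence can enter only by being high in S. pennellii. The fold bounds, differences and adjusted p-values of both genes are therefore a description.

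The largest difference towards S. lycopersicum was that of Solyc01g006390.2.1. It had 0 and 1.01 RPKM in S. pennellii in shade and sun, against 350 and 168 RPKM in S. lycopersicum, which is 1 read against 775. Its log2 difference was -7.42 ± 0.61 (SE, limma adjusted p = 2.4e-06), and the groups did not overlap. In the order of the IDs this gene model stands next to Solyc01g006400.2.1, the strongest member in each of the 4 inflorescence libraries. Solyc01g009590.2.1 had 0 and 0 RPKM in S. pennellii, against 28.7 and 278 RPKM in S. lycopersicum in shade and sun. It was at least 77.9-fold lower in S. pennellii (log2 difference -6.51 ± 0.67, SE, limma adjusted p = 2.2e-05), and its S. lycopersicum libraries were far apart. With the inflorescence libraries alone, the limma adjusted p was 0.077 for Solyc01g006390.2.1 and 0.14 for Solyc01g009590.2.1. These libraries also chose both genes for the list, so their differences, adjusted p-values and the fold bound are a description too.

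**Figure D2:**
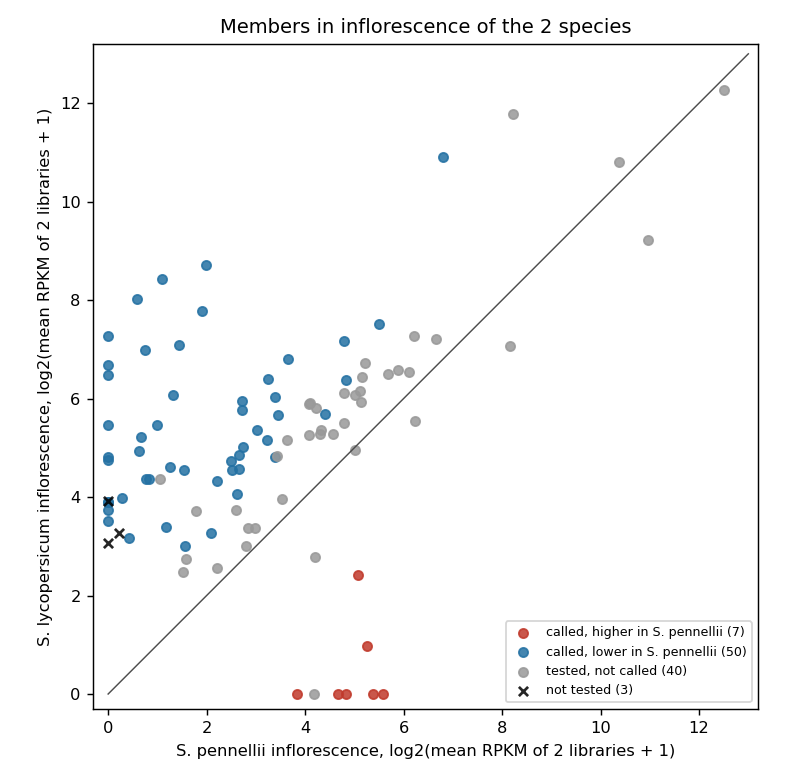
Mean of 2 S. pennellii inflorescence libraries (horizontal axis) against mean of 2 S. lycopersicum inflorescence libraries (vertical axis) for the 100 members, both as log2(mean RPKM + 1), with the line of equal means. The 50 members called lower in S. pennellii lie above the line, the 7 called higher lie below it, and a column of members stands at 0 in S. pennellii.

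Several members had reads in 1 of the 2 species and not in the other, over both experiments. There were 19 libraries of S. pennellii and 19 of S. lycopersicum in all. No S. pennellii library held a read of 6 members, and no S. lycopersicum library held a read of 5. Of the 15907 gene models whose inflorescence mean was at or above the lowest of the members, 0.239% had no read in S. pennellii and 0.132% had none in S. lycopersicum. As the score favours genes absent from other tissues, these shares describe the list. Among the 5, the neighbouring gene models Solyc12g035440.1.1, Solyc12g035450.1.1 and Solyc12g035460.1.1 were singled out after their values were seen. Solyc12g035450.1.1 had 27.3 and 27.8 RPKM in S. pennellii inflorescence in shade and sun, against 0 and 0 in S. lycopersicum. Solyc12g035460.1.1 had 27.2 and 21.8 RPKM in S. pennellii, against 0 and 0 in S. lycopersicum, and Solyc12g035440.1.1 had 18.8 and 7.75 RPKM, against 0 and 0. These 3 gene models also had no read in the 14 seedling libraries of S. pimpinellifolium and S. habrochaites, and had 2, 8 and 14 reads in ID order in S. pennellii seedlings. The gene models on either side in the ID order, Solyc12g035420.1.1 and Solyc12g035470.1.1, had 69 and 165 reads in the S. lycopersicum libraries. A read of 1 species that differs from the reference sequence may be counted less well, and the part of this in a value of 0 was not tested.

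Some members stood close together in the order of the IDs. Taking members at most 5 places apart as neighbours, 26 of the 100 fell into 12 clusters of at most 3. The same count gave 20 members in 8 clusters for the 100 most root-specific gene models, 6 in 3 for stem and 27 in 11 for leaf. Neighbouring gene models can be near-identical copies, and how the counting split reads between copies is not given in the sources used here. Levels of such neighbours are therefore uncertain. The neighbours Solyc08g074620.1.1 and Solyc08g074630.1.1 were both among the strongest members. Solyc08g074620.1.1 had 2309 and 1685 RPKM in S. pennellii inflorescence in shade and sun, against 691 and 506 RPKM in S. lycopersicum. Solyc08g074630.1.1 had 1588 and 1046 RPKM in S. pennellii, against 1763 and 1798 RPKM in S. lycopersicum. The 2 neighbours were thus ordered in opposite ways between the species, but neither difference was called. The log2 difference was 1.74 ± 0.61 for Solyc08g074620.1.1 (SE, limma adjusted p = 0.094) and -0.47 ± 0.81 for Solyc08g074630.1.1 (SE, limma adjusted p = 0.79).

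The light comparison asked whether inflorescence in shade differed from inflorescence in sun. No member was called in the limma fit, which shares 1 light term per tissue between the species, and 0% of all 22512 genes were called. At an unadjusted p under 0.05 there were 21 members and 451 genes. With limma voom on the recovered reads, 1 member was called, Solyc11g018570.1.1. The largest values in the main fit were also uncalled. Solyc11g018570.1.1 had 0 RPKM in S. pennellii in shade and 11.4 RPKM in S. lycopersicum in shade, against 2.29 RPKM in S. pennellii in sun and 680 RPKM in S. lycopersicum in sun. Its shade minus sun difference was -3.75 ± 0.74 log2 units (SE, limma adjusted p = 1), and -5.16 ± 0.60 with voom (SE, limma adjusted p = 0.0104). The S. lycopersicum sun library that sets this difference also put the gene on the list, so the voom call is a description. The difference was -5.77 with 1 or the other S. pennellii library left out, and -1.72 with 1 or the other S. lycopersicum library left out. Solyc05g017800.1.1 had 34.3 RPKM in S. pennellii in shade and 0 in the other 3 inflorescence libraries, 17 reads in all, with a difference of 2.57 ± 0.95 log2 units (SE, limma adjusted p = 1).

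Within a species there was 1 library per light treatment, so the values by species have no replicate check and no test. The same 4 libraries chose the members, and a high value in 1 of them can bring a gene onto the list. The light counts, by species or shared, are therefore a description. In S. pennellii the shade minus sun difference was above 1 log2 unit in 10 members and below -1 in 23, where 6.61% and 3.64% of all genes tested were. In S. lycopersicum it was above 1 in 10 members and below -1 in 25, where 5.01% and 7.40% of all genes were. In S. lycopersicum 17 of the 25 were below -2, where 0.888% of all genes were. The members' median difference was -0.07 in S. pennellii and -0.04 in S. lycopersicum, where the medians of all genes tested were 0 and -0.07. In the fit that shares the light term between the species, the median was -0.21 over the 97 members tested and -0.0067 over all genes, with 34 members above 0 and 63 below. Of the 100 members, 24 were lower in shade in both species, 11 were higher in both and 47 were opposite, where the shares of all genes tested were 20.4%, 15.7% and 48.95%. In both species 4 members were below -1, where 0.440% of all genes were.

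In 11 members both S. pennellii libraries were above both S. lycopersicum libraries, and in 77 the reverse held, where the shares of the 14610 gene models with an inflorescence mean of at least 5 RPKM were 18.5% and 43.0%. The same 4 libraries chose the members, so these counts are a description. A smaller group was high in a single library. In 20 members the S. lycopersicum sun library was more than 3 times the next highest inflorescence library, which held for 0.548% of the 14610 gene models with an inflorescence mean of at least 5 RPKM. That library was also the highest for 51 of the members and for 45.2% of those gene models. The 20 members had a median of 37.7 RPKM in S. lycopersicum in sun and 6.503 in S. lycopersicum in shade, and medians of 0 in both S. pennellii libraries. In 10 of them S. pennellii inflorescence held no read, and in 16 the next tissue mean was under 1 RPKM. With 1 library per species and light, an effect of light and a property of that library cannot be told apart. Without that library, 78 of the 100 members would have been chosen.

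**Figure D3:**
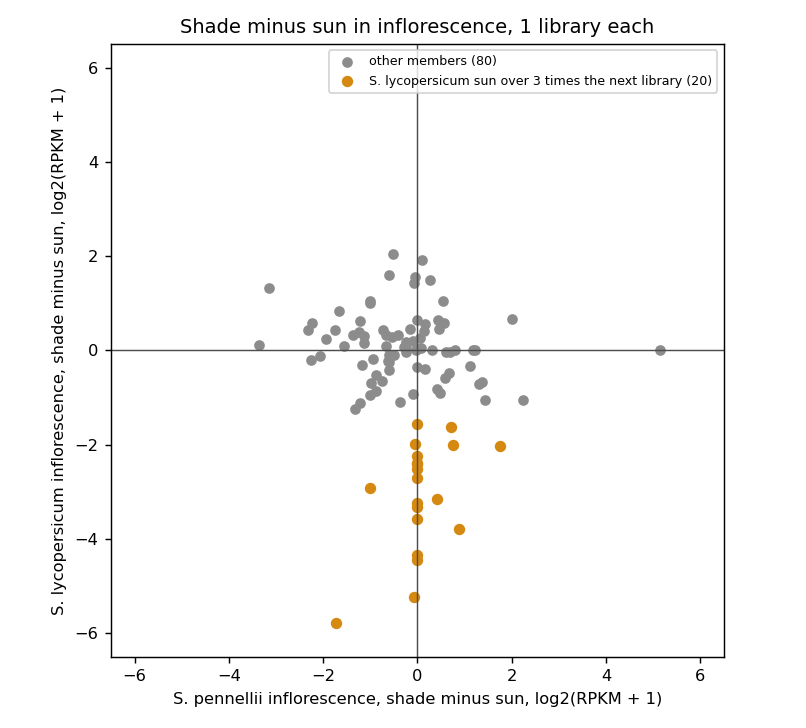
Shade minus sun difference in log2(RPKM + 1) in S. pennellii inflorescence (horizontal axis) and S. lycopersicum inflorescence (vertical axis) for the 100 members, 1 library per species and light. The 20 members in orange, whose S. lycopersicum sun library was over 3 times the next, form a tail downwards between -1.72 and 1.75 on the horizontal axis, where 10 of them stand at 0 because no S. pennellii inflorescence library held a read.

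In the seedling experiment most of the list was scarcely read. Its libraries had no part in choosing the members, but the factorial's seedling was among the tissues that a member's inflorescence mean had to exceed. Low levels in seedlings are therefore partly set by the rule and describe the list. Of the 100 members, 58 had at least 1 RPKM in 7 or more of the 28 libraries and were tested, where 69.0% of all gene models were. Each species has 7 libraries, so a gene model read in 1 species alone can pass this limit and then be called. The called counts below carry this limit, for members and for all genes. With 14 libraries asked, 37 members would be tested. At the limit of 7 libraries, 27 of the 100 most root-specific gene models were tested, 77 for stem and 84 for leaf. The mean over the 28 libraries was under 1 RPKM for 54 members and at least 10 for 8, and 6 members had no read at all. Of the 52 members at 5 RPKM or more in the inflorescence of both species 41 were tested, against 3 of the 8 for S. pennellii alone and 14 of the 38 for S. lycopersicum alone. Of the 20 members that peaked in the S. lycopersicum sun library 5 were tested. The members that could be tested are therefore mainly those also read outside the inflorescence, and they do not stand for all 100.

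The members' summed RPKM per seedling library (lowest, median and highest of 7) was 321, 358 and 454 in S. pimpinellifolium. It was 768, 814 and 1039 for S. habrochaites and 552, 656 and 720 for S. pennellii, against 647, 723 and 1072 for S. lycopersicum. The 2 gene models Solyc01g006400.2.1 and Solyc08g074620.1.1 carried a large part of these sums. Without both, the sums were 197, 207 and 280 for S. pimpinellifolium, 179, 219 and 277 for S. habrochaites and 263, 332 and 367 for S. pennellii, against 296, 388 and 580 for S. lycopersicum. The order of the species therefore differed with and without them.

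Each wild species was compared with S. lycopersicum, and the 3 comparisons share the 7 S. lycopersicum libraries. In S. pimpinellifolium, 14 of the 58 members were called, where 4.65% of all 19536 genes tested were called. Of the 14, 5 were higher, where 1.82% of all genes were called higher, and 9 were lower, where 2.83% were. In S. habrochaites, 12 members were called, where 13.3% of all genes were, with 3 higher against 4.06% of all genes and 9 lower against 9.2%. With median-ratio or quantile scaling, the S. habrochaites split was 5 higher and 7 lower, where 13% and 12.8% of all genes were called either way. With limma voom 19 members were called, where 16.3% of all genes were. In S. pennellii, 22 members were called, where 18.7% of all genes were, with 12 higher against 11.8% of all genes and 10 lower against 6.95%. The members tested had a median log2 difference of -0.16 in S. pimpinellifolium, where all genes tested had one of -0.0027. In S. habrochaites the members' median was 0.03, where that of all genes was -0.14, and in S. pennellii it was 0.18, where that of all genes was 0.10.

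The seedling libraries fell into blocks by the range of their run record numbers. With the libraries of run block 1 and of run block 2 fitted alone, 60 and 53 members were tested. For S. pimpinellifolium 12 and 9 members were called, where 4.85% and 4.55% of all genes tested were. For S. habrochaites 12 and 12 were called, where 12.7% and 14.6% of all genes were. For S. pennellii 27 and 17 were called, where 19.9% and 18.4% of all genes were. Run block 3 held 2 libraries, both of S. habrochaites, and gave no comparison. At least 1 of the 3 comparisons called 27 members, or 46.6% of the 58, where 27.1% of all genes tested were. All 3 called 8 members, or 13.8%, where 1.70% of all genes were, and the shared S. lycopersicum libraries tie the 3 comparisons together in both shares. Of the 8, 6 were lower than S. lycopersicum in every wild species, where 1.04% of all genes were, and 1 was higher in every wild species, where 0.425% were. The remaining member, Solyc03g034390.1.1, was lower in S. pimpinellifolium and higher in the other 2.

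The members named in seedlings are the called ones with the largest differences among those with a mean of at least 5 RPKM in the higher group. Of these 9 members, 6 had a difference of the same sign in all 3 wild species, not all of them called. Solyc07g061750.2.1, at the edge of the list by score, had 8.23, 11.8 and 15.9 RPKM in S. pimpinellifolium seedlings (lowest, median and highest of 7), against 0, 0 and 0.588 RPKM in S. lycopersicum. It rose in S. pimpinellifolium by 3.48 ± 0.24 log2 units (SE, limma adjusted p = 5.2e-12). Solyc01g058520.2.1 had 2.30, 5.02 and 8.48 RPKM in S. pimpinellifolium, against 0.857, 1.204 and 1.89 RPKM in S. lycopersicum. It rose by 1.35 ± 0.24 log2 units (SE, limma adjusted p = 0.00015), and the call was lost with run block 2 alone (0.94 log2 units, limma adjusted p = 0.095). In both genes every S. pimpinellifolium library was above every S. lycopersicum library. Solyc01g089910.2.1, named after its values were seen, averaged 4.76 RPKM in S. pimpinellifolium and so lay under the limit of 5. It was called higher there by 2.104 log2 units (limma adjusted p = 1.3e-09).

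The neighbours Solyc08g074620.1.1 and Solyc08g074630.1.1 were the largest decreases in S. pimpinellifolium. Solyc08g074620.1.1 had 37.3, 41.8 and 68.5 RPKM in S. pimpinellifolium seedlings, against 136, 177 and 329 RPKM in S. lycopersicum, and fell by 2.06 ± 0.18 log2 units (SE, limma adjusted p = 1.2e-09). Solyc08g074630.1.1 had 9.53, 16.2 and 21.8 RPKM in S. pimpinellifolium, against 50.2, 61.7 and 97.8 RPKM in S. lycopersicum, and fell by 2.005 ± 0.220 log2 units (SE, limma adjusted p = 8.9e-08). The libraries of the 2 species did not overlap in either gene. Over the 58 members tested, all S. pimpinellifolium libraries were above all S. lycopersicum libraries in 4 and below them in 4, where 2.78% and 3.34% of all genes tested were.

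In S. habrochaites the largest increases were those of Solyc03g034390.1.1 and Solyc07g006570.2.1. Solyc03g034390.1.1 had 15.8, 19.5 and 54.1 RPKM in S. habrochaites seedlings, against 1.39, 4.21 and 13.6 RPKM in S. lycopersicum, a rise of 2.21 ± 0.35 log2 units (SE, limma adjusted p = 1.5e-05). Solyc07g006570.2.1 had 9.85, 12.9 and 27.2 RPKM in S. habrochaites, against 2.11, 2.57 and 5.35 RPKM in S. lycopersicum, a rise of 1.96 ± 0.28 log2 units (SE, limma adjusted p = 2.1e-06). No S. habrochaites library was as low as any S. lycopersicum library in either gene. The largest decreases were those of Solyc11g020960.1.1 and Solyc01g006390.2.1. Solyc11g020960.1.1 had 7.61, 15.6 and 29.2 RPKM in S. habrochaites, against 77.3, 85.3 and 195 RPKM in S. lycopersicum, and fell by 2.64 ± 0.25 log2 units (SE, limma adjusted p = 1.7e-09). Solyc01g006390.2.1 had a read in 1 of the 7 S. habrochaites libraries, at 1.19 RPKM, against 2.33, 4.67 and 7.76 RPKM in S. lycopersicum, and fell by 2.34 ± 0.28 log2 units (SE, limma adjusted p = 1.2e-07). Over the 58 members tested, all S. habrochaites libraries were above all S. lycopersicum libraries in 4 and below them in 5, where 4.25% and 8.7% of all genes tested were.

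In S. pennellii seedlings the largest increases were those of Solyc02g071730.2.1 and Solyc03g034390.1.1. Solyc02g071730.2.1 had 15.02, 17.7 and 26.4 RPKM in S. pennellii, against 0, 0 and 1.63 RPKM in S. lycopersicum, a rise of 3.80 ± 0.30 log2 units (SE, limma adjusted p = 1.9e-11). Solyc03g034390.1.1 had 40.3, 57.3 and 78.3 RPKM in S. pennellii, against 1.39, 4.21 and 13.6 RPKM in S. lycopersicum, a rise of 3.56 ± 0.35 log2 units (SE, limma adjusted p = 2.6e-09). The largest decreases were those of Solyc11g020960.1.1 and Solyc08g074630.1.1. Solyc11g020960.1.1 had 0.839, 1.26 and 1.93 RPKM in S. pennellii, against 77.3, 85.3 and 195 RPKM in S. lycopersicum, and fell by 5.52 ± 0.25 log2 units (SE, limma adjusted p = 7.8e-17). Solyc08g074630.1.1 had 0, 1.46 and 2.47 RPKM in S. pennellii, against 50.2, 61.7 and 97.8 RPKM in S. lycopersicum, and fell by 4.98 ± 0.22 log2 units (SE, limma adjusted p = 4.6e-17). The libraries of the 2 species did not overlap in these 4 genes. Among the 58 members tested, the 7 S. pennellii libraries were all above the 7 S. lycopersicum libraries in 8 and all below them in 6, where 10.2% and 6.85% of all genes tested were.

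**Figure D4:**
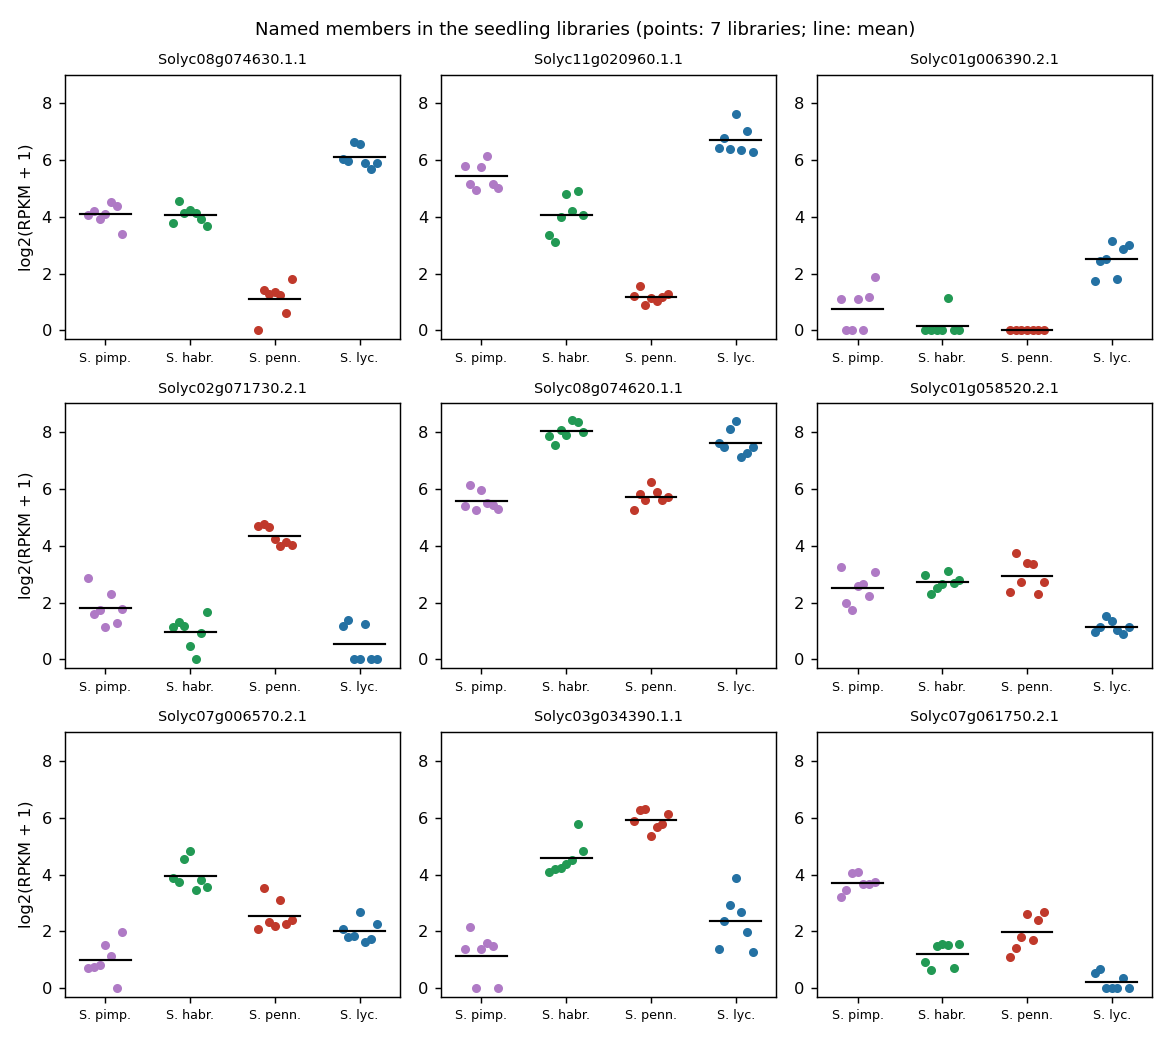
The 9 members named in the seedling comparisons, each in its own panel, with log2(RPKM + 1) of the 7 libraries of S. pimpinellifolium, S. habrochaites, S. pennellii and S. lycopersicum (points) and their mean (line). Solyc11g020960.1.1 and Solyc08g074630.1.1 are lowest in S. pennellii, and Solyc03g034390.1.1 is low in S. pimpinellifolium and high in S. habrochaites and S. pennellii.

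S. pennellii was set against S. lycopersicum in inflorescence and again in seedlings, with no library in common. All 58 members tested in seedlings were also tested in inflorescence. Of the 28 of them called in inflorescence, 16 had the same sign in seedlings, or 57.1%, where 77.1% of the 1656 genes called in inflorescence and tested in both had the same sign. Of the 15 members called in both, 8 were lower in S. pennellii in both, 1 was higher in both and 6 were lower in inflorescence and higher in seedlings. In the factorial's own seedling libraries, both S. pennellii values were above both of S. lycopersicum in 5 of these 6, and not in Solyc02g032910.1.1. Those values come from 1 library per species and light and were not tested. Among all genes called in both, 89.8% of 803 had the same sign. These shares describe the list, whose members were chosen on the inflorescence libraries, and the difference between the shares was not tested.

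The 4 called members that were named above or stand at the edge of the list show what an opposite sign looked like. The inflorescence calls of Solyc03g034390.1.1 (limma adjusted p = 0.0497) and Solyc01g058520.2.1 (limma adjusted p = 0.044) were close to the limit of 0.05. For Solyc02g071730.2.1 and Solyc07g061750.2.1 the limma adjusted p was 0.0018 and 5.2e-06. With the inflorescence libraries alone no member was called. Those libraries also chose the members, so the inflorescence calls of single genes are a description. Solyc02g071730.2.1 had 3.08 and 8.26 RPKM in S. pennellii inflorescence in shade and sun, against 27.8 and 34.9 RPKM in S. lycopersicum inflorescence, while it was higher in S. pennellii seedlings. Solyc03g034390.1.1 had 29.1 and 24.2 RPKM in S. pennellii inflorescence, against 213 and 74.5 RPKM in S. lycopersicum inflorescence. Its 7 S. pennellii seedling libraries, at 40.3 to 78.3 RPKM, were above both S. pennellii inflorescence libraries. Solyc01g058520.2.1 had 8.01 and 11.9 RPKM in S. pennellii inflorescence, against 80.4 and 18.8 RPKM in S. lycopersicum inflorescence. Solyc07g061750.2.1 had 0 and 1.19 RPKM in S. pennellii inflorescence, against 40.3 and 32.5 RPKM in S. lycopersicum inflorescence. Solyc11g020960.1.1 kept 1 direction, with 87.2 and 133 RPKM in S. pennellii inflorescence, against 1864 and 1992 RPKM in S. lycopersicum inflorescence.

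**Figure D5:**
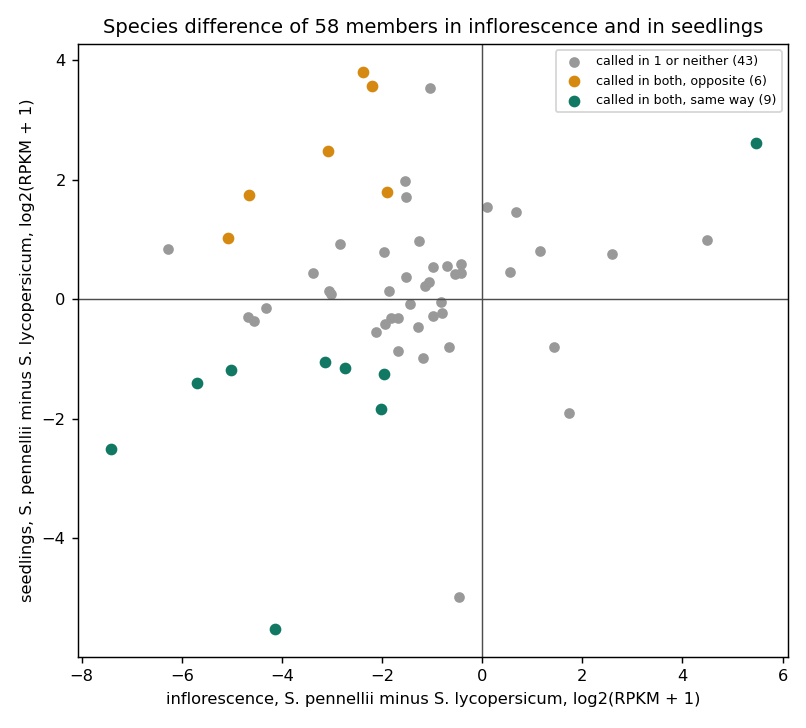
Difference of S. pennellii minus S. lycopersicum in inflorescence (horizontal axis) and in seedlings (vertical axis), in log2(RPKM + 1), for the 58 members tested in both. The 9 members called in both with the same sign are green and the 6 with opposite signs are orange, all of the 6 in the upper left.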

How the data were processed

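One table of RPKM values for 28298 gene models in 52 libraries was used, as the authors deposited it. The submitters' processing notes name CASAVA 1.4 and BWA 0.5.7. The sources used here give neither the reference sequence nor the counting rule. Whole reads were recovered from the RPKM steps within 0.02 reads. Tests were made on log2(RPKM + 1), which understates changes of low genes, with limma 3.58.1 in R 4.3.3 (trended prior, robust), and p-values were adjusted by Benjamini and Hochberg's method across every gene in the fit. Factorial fits kept genes reaching 1 RPKM in 2 of 24 libraries, with means for species by tissue and a light term for each species (for the light comparison, for each tissue). Seedling fits kept genes reaching 1 RPKM in 7 of 28 libraries, with species means. Scripts were tested on simulated data. There, the inflorescence fits called more unchanged genes than the threshold allows. Fold bounds against 0 used 3 reads over a group as the floor, which covers counting error only. The members and lists were chosen with earlier results of these data known. Named genes were those with the 2 highest scores, the 2 on each side of the edge, and the 2 largest called differences each way with a mean of at least 5 RPKM in the higher group (the largest value where none was called). Figures were drawn with matplotlib 3.10.9.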

Additional observations from a re-analysis of the deposited data

Results flagged for a closer look

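In 3 of the 44 groups of 7 seedling libraries examined, 1 library stood apart from the others by Dixon's test, where chance gives about 1 in 20. Solyc01g006390.2.1 had 1.19 RPKM in 1 S. habrochaites library, which was 1 read, and 0 in the other 6. Solyc03g034390.1.1 had 54.1 RPKM in 1 S. habrochaites library, against 15.8 to 27.4 RPKM in the other 6, and 13.6 RPKM in 1 S. lycopersicum library, against 1.39 to 6.55 RPKM in the other 6. Both S. habrochaites libraries belong to run block 3, whose part in these values was not tested.

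In 4 named members the S. pennellii minus S. lycopersicum difference was positive in seedlings and negative in inflorescence, with libraries that did not overlap in either. The gap between the 2 comparisons was not tested, and experiment, light and RNA extraction differ along with tissue. In log2(RPKM + 1) it was 3.80 in seedlings and -2.39 in inflorescence for Solyc02g071730.2.1, 1.79 and -1.90 for Solyc01g058520.2.1, 3.56 and -2.21 for Solyc03g034390.1.1, and 1.74 and -4.65 for Solyc07g061750.2.1.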

How the results depend on the processing

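Of the alternatives tried, a pseudocount of 0.1 moved the count of members called between S. pennellii and S. lycopersicum inflorescence from 57 to 33. The share of all genes called moved from 8.65% to 6.82%. The count of members moved to 0 with the inflorescence libraries alone, whether or not they were paired by light. Both fits of the inflorescence libraries alone were added after seeing the data, and both also called 0 of all genes. In shade against sun, limma voom called 1 member and the inflorescence libraries alone called 0. In seedlings, 9 of 53 members tested were called in S. pimpinellifolium with run block 2 alone, where 4.55% of all genes were. With limma voom 19 were called in S. habrochaites, where 16.3% of all genes were. With an RPKM of at least 1 asked of 14 libraries, 37 members would be tested in seedlings. Of the 100 members, 59 were chosen with a pseudocount of 0.1 in the score and 48 from S. pennellii alone. Causes of these shifts were not tested, and some of the settings also used fewer libraries or genes. Leaving out 1 inflorescence library at a time gave 39 to 52 members called between species, 0 to 0 by light and 78 to 89 chosen. The other 51 counts stayed within 1.5 times of the reported value, and among the values of single named genes 154 kept their direction and side of the threshold, 9 lost the call, 1 gained it and none reversed. The other 2 were Solyc05g017800.1.1 in shade against sun, whose difference was 0 with 1 or the other S. pennellii library left out. No paired analysis was possible because the seedling titles share no replicate numbers between species and the factorial has 1 library per combination; the fits by light and by run block are not pairings of replicates.

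Depth limits the low end: at about 2.12 reads per RPKM unit, members near 1 RPKM in seedlings rest on few reads. Each inflorescence condition had 1 library.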
